A study of Mus musculus with 20 samples.

Results

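The TGF-beta ligands Tgfb1, Tgfb2 and Tgfb3, the receptors Tgfbr1, Tgfbr2 and Tgfbr3, and the latent TGF-beta binding proteins Ltbp1, Ltbp2, Ltbp3 and Ltbp4 were followed as 10 of the 31053 genes measured by single-cell RNA-seq in interscapular brown adipose tissue (iBAT) of mice. The list of genes was drawn up with earlier results of these data known. Its members were matched by symbol alone, and each symbol matched a single row of the expression matrices. All 10 are protein-coding genes. The study sorted the stromal vascular cells of iBAT with magnetic beads into cells carrying immune lineage markers (Lin+) and cells without them (Lin-), and sequenced 1 library of each fraction in each of 10 experiments. Male C57 mice formed 3 groups of 2 experiments each: housed at 24 °C (RT), housed at 6 °C over 4 days (COLD), or given CL316,243 (CL), an agonist of the β3-adrenergic receptor, by infusion at 0.75 nmol per hour over 4 days. Female mice of an Adrb1 line, all carrying floxed Adrb1 on both alleles (Adrb1 fl/fl) and all given tamoxifen, were kept at RT or exposed to the same cold, with 1 experiment per group. Those labelled WT were Pdgfra-CreER -/-, and those labelled KO were Pdgfra-CreER +/-, in which tamoxifen deletes Adrb1 in cells with an active Pdgfra promoter and not in other cells. The mice were 8 to 14 weeks old, and each library pooled 3 to 4 of them, so the pool is the unit of replication.

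TGF-beta is secreted as an inactive complex in which its own propeptide remains wrapped around the growth factor, and latent TGF-beta binding proteins attach that complex to fibrillin and fibronectin fibres of the extracellular matrix. Integrins and proteases release the growth factor, which binds the type II receptor (Tgfbr2). The type II receptor then phosphorylates the type I receptor (Tgfbr1), and the signal passes to Smad proteins. Betaglycan (Tgfbr3) is a co-receptor that presents ligand, Tgfb2 above all. In adipose tissue the pathway is known for promoting matrix production by stromal cells and for restraining adipocyte differentiation.

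The promoters of the latent binders that changed with cold are shown because their genes moved in different directions in the same cells. RefSeq promoter windows on GRCm38.p6 run from 250 bases before to 50 bases after a start site, and 12 of them matched 8 of the 10 genes, with none matched for Tgfb3 and Tgfbr3. Each is written 5′ to 3′ on the strand of its gene, and capitals mark the core Smad element (CAGAC, or GTCTG on the other strand) and the core of the cAMP response element (TGACG, or CGTCA on the other strand), which overlap in a palindromic cAMP element. For Ltbp1 and Ltbp4, which have several windows, the most upstream is given.
Ltbp1, chr17:75005279-75005578, plus strand: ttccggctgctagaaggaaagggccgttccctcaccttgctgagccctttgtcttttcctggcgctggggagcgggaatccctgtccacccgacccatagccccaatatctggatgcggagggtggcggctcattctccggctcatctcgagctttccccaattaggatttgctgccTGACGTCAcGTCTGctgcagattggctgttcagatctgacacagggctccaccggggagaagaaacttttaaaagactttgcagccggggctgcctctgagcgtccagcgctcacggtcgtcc
Ltbp2, chr12:84876442-84876741, minus strand: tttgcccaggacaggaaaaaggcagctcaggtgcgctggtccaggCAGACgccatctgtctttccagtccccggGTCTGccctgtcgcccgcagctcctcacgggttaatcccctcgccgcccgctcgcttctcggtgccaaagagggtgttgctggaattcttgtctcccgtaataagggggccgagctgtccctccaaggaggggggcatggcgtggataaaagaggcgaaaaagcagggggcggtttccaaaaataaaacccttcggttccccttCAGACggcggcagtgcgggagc
Ltbp4, chr7:27337563-27337862, minus strand: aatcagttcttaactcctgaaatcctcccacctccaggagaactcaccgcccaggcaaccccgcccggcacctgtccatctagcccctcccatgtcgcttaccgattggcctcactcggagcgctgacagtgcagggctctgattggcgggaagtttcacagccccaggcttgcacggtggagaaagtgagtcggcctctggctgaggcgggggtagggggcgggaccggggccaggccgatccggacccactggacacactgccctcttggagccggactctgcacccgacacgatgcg
The Ltbp1 window held 1 match to the Smad letters and 2 overlapping matches to the cAMP letters, the Ltbp2 window held 3 and 0, and the Ltbp4 window held 0 of either. Over the windows of the 10 genes, 7 of 12 held the Smad letters and 2 of 12 the cAMP letters, and of all 32851 RefSeq windows 49.6% and 20.8% did.

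Levels are given as CPM, the corrected UMI counts of a gene summed over the cells of a class in a library, scaled to 1000000 UMIs of that class. After filtering, 66339 Lin- and 59935 Lin+ cells remained, 2424 to 12894 per library, with a median of 1204 to 4358 UMIs per cell. Cells were clustered without the 10 genes and without the other pathway genes described here, and the 12 classes tested here were named from marker genes. These were adipose stromal cells (ASC) of 3 kinds, vascular endothelial cells (VEC) and vascular smooth muscle cells (VSMC) in Lin-, and macrophages (MAC), monocytes (MONO), dendritic cells (DEND), T cells, NK cells, B cells and neutrophils (NEUT) in Lin+. Proliferating, differentiating adipocyte-like, Schwann-like and epithelial-like cells and MAC3-like macrophages were named too and were not tested, all but the Schwann-like cells with under 20 cells in some libraries. Names carry "-like" because they rest on expression alone. The RT libraries of the Adrb1 line were made with version 3 of the Chromium kit and its cold libraries with version 2, so kit and temperature cannot be told apart in that line, and its values are given without a test. In the ASC1-like cells of that line, Adrb1 was at 6.66 CPM in WT RT and 4.34 CPM in WT COLD, against 0.624 CPM in KO RT and 0.491 CPM in KO COLD, on 1.0 and 4.0 UMIs. The Lin- library of RT replicate 2 kept 28.0% of its barcodes, with 72.0% at or over the limit of 10% mitochondrial UMIs. The Lin- library of KO RT kept 57.7%, with 41.3% at or over that limit. The Lin- and Lin+ libraries of CL replicate 2 shared 1098 cell barcodes, 17.1% of the former, where the median over 190 pairs of libraries was 0.858%. In the Lin+ library, 923 of these lay in an unnamed cluster and so entered no named Lin+ class. The Lin- library had 595 unnamed cells, fewer than the shared barcodes, so some of these entered named Lin- classes in the main fits. In CL replicate 1, 23.5% of Lin- cells lay in an unnamed cluster with both endothelial and erythroid genes.

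Among the ligands, Tgfb1 (chr7:25687002-25705077, GRCm38) was found at its higher levels in immune, endothelial and mural cells. Tgfb2 (chr1:186622787-186709697) was found at its higher levels in endothelial and stromal cells, and Tgfb3 (chr12:86056743-86079041) in mural cells. Tgfb1 was highest in MONO-like cells in 10 of 10 experiments, at 344 ± 51.0 CPM (SD, n = 10 experiments, here and for the class means that follow). It was at 257 ± 54.0 CPM in MAC-like, 257 ± 39.5 CPM in B-like and 186 ± 39.7 CPM in VEC-like cells, and at 34.2 ± 10.1, 14.2 ± 3.75 and 23 ± 7.73 CPM in ASC1-, ASC2- and ASC3-like cells. VSMC-like cells of the C57 libraries held it at 102 to 127 CPM at RT, where T-like cells were at 103 CPM. The lowest T-like value, 88.0 CPM, was above the highest ASC1-like value, 50.8 CPM, and the ranges of all other neighbours in the order of 12 classes overlapped. Tgfb2 needs betaglycan for efficient binding to the type II receptor. In all 6 cold and CL experiments it was highest in VEC-like cells (111 ± 45.5 CPM over all 10 experiments). In all 4 RT experiments it was highest in ASC2-like cells (100.0 ± 66.0 CPM over all 10 experiments). In the 7 Lin+ classes its mean was at most 0.846 CPM, and no UMI of it was counted in NK-like cells of any library, which allows up to 5.67 to 29.6 CPM (3 counts per library, counting error only). Tgfb3 was highest in VSMC-like cells in 10 of 10 experiments, at 96.7 ± 28.1 CPM, followed by ASC3-like cells at 45.7 ± 14.3 CPM. In VEC-like cells it was at 3.59 ± 2.21 CPM, the lowest of the 5 Lin- classes, and none of those values reached the lowest ASC1-like value, 16.9 CPM.

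**Figure D1:**
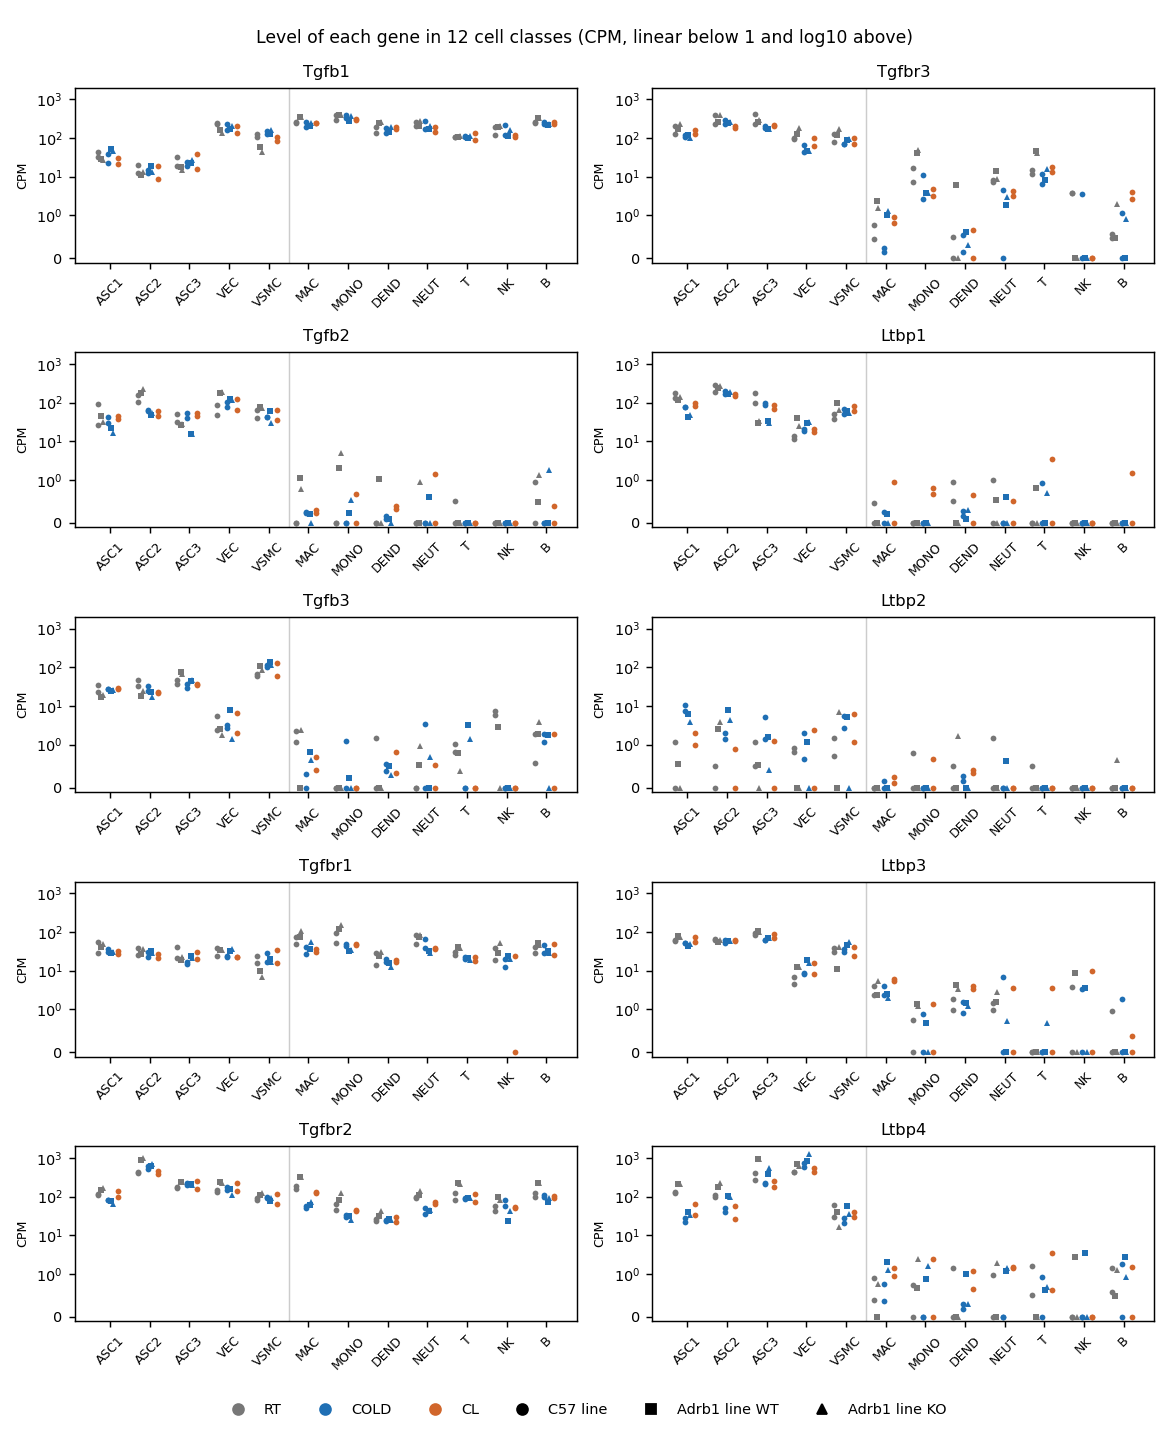
Level in CPM (y axis, linear below 1 and log10 above) of each of the 10 genes in 12 cell classes (x axis), with a point for each of 10 experiments and stromal classes left of the grey line. Tgfb1 sits higher in the immune, VEC and VSMC classes than in the ASC classes. Tgfb2, Tgfb3, Ltbp1 and Ltbp4 fall to about 1 CPM or less in most immune classes, and Ltbp2 stays near 0 in all of them.

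Among the receptors, the type II receptor Tgfbr2 (chr9:116087695-116175363) set ASC2-like cells apart from every other class. It was at 599 ± 202 CPM there, with a range of 379 to 986 CPM, and the next class, ASC3-like cells, ranged from 154 to 248 CPM. VEC-like cells followed at 168 ± 42.4, MAC-like at 148 ± 99.3 and ASC1-like cells at 108 ± 33.8 CPM, and DEND-like cells were lowest at 27.4 ± 6.38 CPM. The type I receptor Tgfbr1 (chr4:47353222-47414926) had the narrowest spread over classes, from 18.7 ± 7.84 CPM in VSMC-like to 67.2 ± 41.4 CPM in MONO-like cells, and the ranges of neighbouring classes overlapped throughout. Betaglycan, Tgfbr3 (chr5:107106567-107289629), was a stromal transcript. It was at 268 ± 71.3 CPM in ASC2-like, 230 ± 72.2 CPM in ASC3-like and 147 ± 44.6 CPM in ASC1-like cells, and at 97.9 ± 32.0 CPM in VSMC-like and 86.2 ± 42.7 CPM in VEC-like cells. Of the Lin+ classes, T-like cells reached 18.5 ± 13.3 CPM and MONO-like cells 14.4 ± 17 CPM, and B-, NK-, MAC- and DEND-like cells had means of at most 1.23 CPM.

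The latent binders differed from each other in the class that held most of them. Ltbp1 (chr17:75005480-75392512), which anchors latent TGF-beta to fibronectin and fibrillin, was highest in ASC2-like cells in 10 of 10 experiments, at 202 ± 47.5 CPM, against 97.5 ± 41.7 CPM in ASC1-like and 73.3 ± 45.7 CPM in ASC3-like cells. Ltbp4 (chr7:27305140-27339720), which binds chiefly the Tgfb1 complex and is also needed for elastic fibre assembly, was highest in VEC-like cells in 8 experiments (660 ± 258 CPM) and in ASC3-like cells in the other 2 (435 ± 277 CPM). Its level in ASC2-like cells was 98.2 ± 62.1 CPM and in ASC1-like cells 90.3 ± 74.4 CPM. Ltbp3 (chr19:5740900-5758536), which binds latent TGF-beta complexes, was highest among the 12 classes in ASC3-like cells in 9 experiments, at 80.3 ± 16.6 CPM. It was at 60.1 ± 3.99 CPM in ASC2-like and 59.1 ± 11.8 CPM in ASC1-like cells. Ltbp2 (chr12:84783212-84876558), which binds fibrillin and not latent TGF-beta, had a mean of at most 3.28 CPM in each of the 12 classes. In differentiating adipocyte-like cells, which lie outside those 12 and were counted in 5 experiments, it reached 14.0 ± 2.26 CPM. Beside the gap given for Tgfb1, the ranges of neighbouring classes overlapped except between ASC3- and MONO-like cells for Tgfb2, ASC1- and VEC-like cells for Tgfb3, ASC2- and ASC3-like cells for Tgfbr2, VEC- and T-like cells for Ltbp1, and VSMC- and B-like cells for Ltbp4. In the immune classes Ltbp1, Ltbp2 and Ltbp4 had means of at most 1.08 CPM. Ltbp3 in MAC-like cells, at 3.63 ± 1.57 CPM, was at a median of 6.43% of its ASC1-like level, where the stromal genes Dcn, Col1a1 and Col3a1 in the same cells were at medians of 0.0533% to 0.0837% of theirs.

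Differences between classes were tested in a fit of all 12 classes with the experiment as a block, in which 9 of the 10 genes passed the filter on low counts and Ltbp2 did not. The classes were made from other genes of the same cells, and large shares of all genes differ between them, which are given beside each count. ASC1-like cells differed from ASC2-like cells in 5 of 9 genes, where 42.1% of all genes tested did. The log2 difference, ASC1-like minus ASC2-like, was -2.59 ± 0.14 (SE) for Tgfbr2, -1.37 ± 0.17 for Tgfb2, -1.21 ± 0.17 for Ltbp1 and -0.99 ± 0.15 for Tgfbr3, all lower in ASC1-like cells, and 1.20 ± 0.13 for Tgfb1, which was higher there. Between ASC1- and ASC3-like cells 7 of 9 differed (31.9% of all genes), Ltbp4 most, with -2.45 ± 0.20, and between ASC2- and ASC3-like cells 8 of 9 (32% of all genes), again with Ltbp4 furthest at -2.17 ± 0.20. With ASC1-like cells subtracted, VEC-like cells differed in 9 of 9 genes (65.6% of all genes), with Ltbp4 at 3.07 ± 0.21, Tgfb1 at 2.29 ± 0.12 and Tgfb3 at -3.11 ± 0.26. VSMC-like cells differed in 8 of 9 (56.4% of all genes), with Tgfb3 at 1.70 ± 0.17. MAC-like cells differed in 9 of 9 (75.9% of all genes), with Tgfb1 at 3.30 ± 0.12, and the class and the fraction cannot be told apart in that comparison. Each of the differences named here had an adjusted p of at most 1.17e-08 (edgeR quasi-likelihood test, Benjamini-Hochberg over 13141 genes).

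The shares of a gene's UMIs that each class supplied depend on how many cells of it were recovered as well as on its level, and the sort sets which classes a library holds. Of the Tgfb1 UMIs in the C57 Lin- libraries, VEC-like cells gave 39.5% and 37.8% at RT, 22.1% and 18.2% after cold exposure and 37.6% and 11.4% with CL, and in the Lin+ libraries MAC-like cells gave 22.6% and 22.1%, 36.5% and 30.5%, and 50.8% and 28.5%. MAC3-like cells, which are not counted in the MAC-like class, gave a further 1.09% and 0.939%, 13.2% and 9.60%, and 6.32% and 2.27%. Macrophages were thus the leading named source of Tgfb1 in each of the 6 Lin+ libraries. Of the Tgfbr2 UMIs in Lin-, ASC2-like cells gave 45.7% and 53.6% at RT against 38.4% and 41.7% after cold exposure, more than any other class. Of the Ltbp4 UMIs in Lin-, ASC1-like cells gave 27.2% and 17.2% at RT against 16.5% and 12.7% after cold exposure, and VEC-like cells 27.6% and 27.7% at RT against 42.2% and 41.0% after cold exposure. The stromal members Tgfb2, Ltbp1 and Ltbp4 were counted in the C57 Lin+ libraries too, where cells of unnamed clusters held 75.0% to 100.0% of their UMIs.

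Cold and CL were each compared with RT in the C57 libraries, and both comparisons use the same RT libraries. The study placed ASC1 among the interstitial cells of the parenchyma by in situ hybridization for Bmper, and position was not measured here. In ASC1-like cells Ltbp4 and Ltbp1 fell and Ltbp2 rose in the cold. The Ltbp1 call was lost without any 1 of the RT and cold libraries. Ltbp2 was tested only because the cold libraries lifted it over the filter on low counts. Ltbp3, the ligands and the receptors did not pass the test. All 10 genes were tested there, 3 of them were called, and 15.9% of all genes tested were called.

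Ltbp4 in ASC1-like cells was at 132 and 127 CPM in libraries of RT mice, 28.0 and 22.4 CPM in the libraries of cold-exposed mice, and 33.6 and 64.4 CPM in those of CL-treated mice. Each cold value lay below each RT value, and both CL values lay between the cold and the RT values. Cold changed it by a log2 fold change of -2.29 ± 0.36 (SE), with an adjusted p of 0.00456 (edgeR quasi-likelihood test). For CL the log2 fold change was -1.16 ± 0.35 with an adjusted p of 0.143 (edgeR). Without CL replicate 2 it was -1.88. That fit rests on 1 CL library, replicate 1, in whose ASC1-like cells erythroid markers summed to 1236 CPM. In the Adrb1 line it was at 212 CPM in WT RT and 41.0 CPM in WT COLD, and at 209 CPM in KO RT and 34.1 CPM in KO COLD, so the library from cold mice was the lower in both genotypes.

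Ltbp2, nearly absent at RT, was counted with 9.0 and 0.0 UMIs in the ASC1-like cells of the RT libraries, 131.9 and 111.8 UMIs in the libraries of cold-exposed mice, and 7.0 and 7.0 UMIs in those of CL-treated mice. These are 1.17 and 0.0 CPM at RT, 10.9 and 7.32 CPM after cold exposure and 1.98 and 0.993 CPM with CL. The cold libraries were above the RT and CL libraries, and the CL libraries overlapped with RT in CPM. The fitted change with cold was 3.34 ± 0.61 on the log2 scale with an adjusted p of 0.00813, a size that depends on the few UMIs at RT. The gene passed the filter on low counts in these cells only through the cold libraries, where it was high, and did not pass it in the other 11 classes, so its p lends the count of calls no support. With 1 library left out it was 2.73 (without RT replicate 2) to 9.18 (without RT replicate 1, which leaves an RT library with no UMI), and without COLD replicate 1 the adjusted p was 0.0538. The Adrb1 line gave 0.556 CPM in WT RT (1.0 UMI) and 6.12 CPM in WT COLD (72.1 UMIs), and no UMI in KO RT, which allows up to 1.87 CPM (3 counts), against 3.78 CPM in KO COLD (30.6 UMIs).

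Ltbp1 in ASC1-like cells was at 127 and 176 CPM at RT, 75.6 and 76.3 CPM after cold exposure, and 81.3 and 97.4 CPM with CL. Neither the cold nor the CL values overlapped those at RT, and the RT libraries were the furthest apart. Its log2 fold change with cold was -0.85 ± 0.21 with an adjusted p of 0.0258, and that call was lost without any 1 of the 4 RT and cold libraries, with adjusted p from 0.0595 to 0.203, and at the coarser clustering resolution of 0.5 (adjusted p = 0.0509). With CL it was -0.49 ± 0.21 with an adjusted p of 0.275. The Adrb1 line had 113 CPM in WT RT and 41.4 CPM in WT COLD, and 138 CPM in KO RT and 48.4 CPM in KO COLD. Ltbp3 stayed within 43.7 to 78.3 CPM over the 10 experiments, with a log2 fold change of -0.10 ± 0.20 with cold and 0.31 ± 0.20 with CL.

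**Figure D2:**
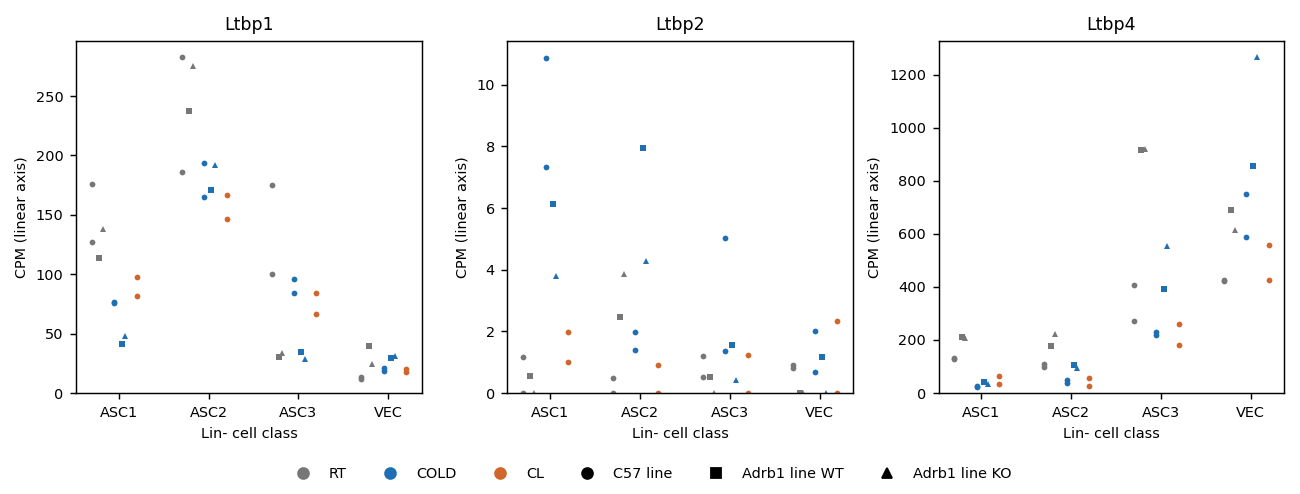
Level in CPM (y axes, linear from 0) of Ltbp1, Ltbp2 and Ltbp4 in ASC1-, ASC2-, ASC3- and VEC-like cells (x axis), with a point per library coloured by treatment and shaped by mouse line. The cold libraries lie low for Ltbp4 and high for Ltbp2 in ASC1-like cells, and Ltbp4 in VEC-like cells lies above every ASC1-like value.

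Different clusters held most ASC1-like cells at RT and after treatment. The RT cells lay mainly in cluster 9 (1367 cells of RT replicate 1) and cluster 8 (1095 cells of RT replicate 2), and the cold and CL cells mainly in clusters 2 and 3, of which cluster 3 had no ASC1 marker among its 10 leading genes. Ltbp4 was low in the cold within clusters as well. In cluster 8 it was at 145 and 130 CPM at RT against 38.1 and 55.7 CPM after cold exposure, and in cluster 3 at 170 and 135 CPM at RT, 33.5 and 27 CPM after cold exposure and 37.8 and 65.9 CPM with CL. In cluster 2 the RT values rest on 41 and 88 cells, and were 95.3 and 71.5 CPM against 23.4 and 20.3 CPM after cold exposure. The summed level of the 5 ASC1 markers in these cells also moved, from 7138 to 8392 CPM at RT to 3167 to 3411 CPM after cold exposure and 3438 to 4003 CPM with CL, and that of 7 differentiating adipocyte markers from 196 to 280 CPM at RT to 1101 to 1490 CPM after cold exposure and 1121 to 1359 CPM with CL. The summed level of the 3 markers shared by all ASC was higher too, from 1114 to 1495 CPM at RT to 3152 to 3737 CPM after cold exposure and 2458 to 3030 CPM with CL. ASC3 markers, of a class with more Ltbp4, summed to 467 to 686 CPM at RT against 277 to 343 CPM after cold exposure, and VEC markers to 28.9 to 34.5 CPM at RT against 31.5 to 47.5 CPM after cold exposure. Higher after cold exposure were also the proliferation markers (9.33 to 17.5 CPM at RT against 116 to 162 CPM), the monocyte markers (137 to 146 against 594 to 775 CPM), the MAC1 markers (115 to 181 against 323 to 393 CPM) and the erythroid markers (2.86 to 7.36 against 51.6 to 71.9 CPM), the last at 6.74 and 1236 CPM with CL. The list of 7 general macrophage markers was not, at 20.3 to 24.1 CPM at RT against 15.3 to 18 CPM after cold exposure, and neutrophil markers summed to at most 0.445 CPM. VSMC and pericyte markers (91.5 to 111 CPM at RT against 56.7 to 73.4 CPM) and MAC2 markers (151 to 169 against 105 to 116 CPM) were lower after cold exposure. ASC2 markers were at 107 to 114 CPM at RT, 88.8 to 100.7 CPM after cold exposure and 223 to 228 CPM with CL. Their part in the Ltbp4, Ltbp2 and Ltbp1 results was not tested.

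The cold response of 3 of the 10 genes, Ltbp4, Ltbp1 and Tgfbr2, differed between ASC1-like cells and at least 1 of the ASC2-, ASC3- and VEC-like classes, the only classes compared in this way. In ASC2-like, ASC3-like, VEC-like and VSMC-like cells, 0 of 9, 0 of 9, 0 of 8 and 0 of 9 genes tested were called in the cold, where 0.281%, 0.464%, 0.257% and 0.526% of all genes were. At an unadjusted p under 0.05 there were 2, 2, 1 and 1. Among all genes that limit was passed by 908 of 11404, 861 of 10138, 1143 of 10112 and 951 of 9699. In VEC-like cells Ltbp4 was at 425 and 423 CPM at RT against 589 and 751 CPM after cold exposure, with an adjusted p of 0.504, so its cold libraries were the higher ones there. In ASC3-like cells it was at 272 and 408 CPM at RT against 217 and 229 CPM after cold exposure, and in ASC2-like cells at 99.6 and 108 CPM at RT against 49.8 and 39.5 CPM after cold exposure. Tests of the difference in response, with the library as a block, gave a log2 fold change of Ltbp4 in ASC1-like cells minus that in the other class of -1.13 ± 0.17 for ASC2-like cells (adjusted p = 0.00121, edgeR), -1.77 ± 0.20 for ASC3-like cells (adjusted p = 3.90e-06) and -2.93 ± 0.33 for VEC-like cells (adjusted p = 0.00028). The log2 fold change of Ltbp4 was thus lower in ASC1-like cells than in each of these classes, and in none of the other classes did Ltbp4 itself pass the main test. In ASC2-like cells its log2 fold change was -1.17 ± 0.39 with cold (adjusted p = 0.438, edgeR). With CL it was -1.04 ± 0.37 there (adjusted p = 0.368), at 26.6 and 56.4 CPM. Both were called there without the filter on low counts. The cold change was also called with the Adrb1 line, in which kit and temperature cannot be told apart. The Ltbp1 response differed between ASC1- and VEC-like cells by -1.52 ± 0.26 (adjusted p = 0.00408), where VEC-like cells held 11.8 and 13.4 CPM at RT against 18.8 and 21.1 CPM after cold exposure, and without RT replicate 1 its adjusted p was 0.0563. Between ASC1- and ASC2-like, ASC1- and ASC3-like, and ASC1- and VEC-like cells, 7.28%, 11.1% and 7.94% of all genes differed in their cold response, beside 2 of the 10 genes in each pair.

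Tgfbr2 took part in the same contrast of stromal classes without being called in any one of them. In ASC1-like cells it was at 118 and 109 CPM at RT against 80.4 and 80.5 CPM after cold exposure (log2 fold change -0.42 ± 0.25, adjusted p = 0.278). In ASC2-like cells it was at 419 and 444 CPM at RT against 607 and 512 CPM after cold exposure, and in ASC3-like cells at 172 and 165 CPM at RT against 222 and 195 CPM after cold exposure. The cold libraries lay below RT in the first class and above it in the other two. Its log2 fold change in ASC1-like cells minus that in ASC2-like cells was -0.85 ± 0.22 (adjusted p = 0.0338, edgeR), and minus that in ASC3-like cells -0.72 ± 0.16 (adjusted p = 0.00345). Without any 1 of the 4 RT and cold libraries the first of these had an adjusted p of 0.0749 to 0.313, and the second had 0.0556 without RT replicate 1. Tgfb2 in ASC2-like cells was at 104 and 159 CPM at RT, 62.5 and 61.4 CPM after cold exposure and 44.1 and 59.9 CPM with CL, so that every treated library lay below both RT libraries. It did not pass the test, with log2 fold changes of -0.96 with cold (adjusted p = 0.239, edgeR) and -1.03 with CL (adjusted p = 0.237). Without CL replicate 2, a fit that rests on 1 CL library, the change with CL was -1.43. In the same cells ASC2 markers summed to 10584 to 13938 CPM at RT, 10976 to 11906 CPM after cold exposure and 5270.4 to 9279 CPM with CL, ASC1 markers to 296 to 487, 767 to 812 and 537 to 859 CPM, and differentiating adipocyte markers to 9.10 to 26.1, 63.5 to 358 and 82.8 to 190 CPM. Their part in the Tgfb2 values was not tested.

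In Lin+ cells Tgfbr1 and Tgfbr2 fell with cold in macrophages, and Tgfbr2 was also called in neutrophils, a call that most alternatives did not keep. In MAC-like cells, whose 4 tested genes were Tgfb1, Tgfbr1, Tgfbr2 and Ltbp3, both receptors were called, beside 35.9% of all genes. Tgfbr2 in MAC-like cells was at 186 and 157 CPM at RT, 57.5 and 52.2 CPM after cold exposure, and 134 and 122 CPM with CL. The 3 groups did not overlap, with cold lowest. The log2 fold change with cold was -1.60 ± 0.17 (adjusted p = 0.000247), and with CL -0.43 ± 0.17 (adjusted p = 0.141). The Adrb1 line had 312 CPM in WT RT and 62.2 CPM in WT COLD, and 319.6 CPM in KO RT and 74.1 CPM in KO COLD.

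Tgfbr1 in MAC-like cells was at 72.0 and 48.6 CPM at RT, 39.8 and 27.5 CPM after cold exposure and 30.7 and 35.9 CPM with CL, with all treated libraries below both RT libraries. Cold changed it by -0.79 ± 0.25 (adjusted p = 0.0347), a call that was lost without RT replicate 1 (adjusted p = 0.283) or COLD replicate 2 (adjusted p = 0.221) and in DESeq2 (adjusted p = 0.0627). With CL the change was -0.86 ± 0.26 (adjusted p = 0.0685), and with the replicate block it was -0.85 with an adjusted p of 0.0474. The ligand Tgfb1 in MAC-like cells was at 235 and 260 CPM at RT, 254 and 191 CPM after cold exposure and 235 and 238 CPM with CL, and its groups overlapped.

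The make-up of the MAC-like class changed with treatment. MAC1-like cells (Gpnmb, Trem2 and Spp1, markers of lipid-handling macrophages) numbered 34 and 12 at RT, 1865 and 1138 after cold exposure and 1095 and 180 with CL, and MAC2-like cells (Folr2 and Cbr2, markers of resident macrophages) 682 and 690 at RT, 131 and 69 after cold exposure and 1366 and 553 with CL. Tgfbr2 was the higher in MAC2-like cells in each of the C57 libraries. Within MAC2-like cells it was at 198 and 161 CPM at RT against 119 and 108 CPM after cold exposure, with no overlap, and 211 and 143 CPM with CL. Within MAC1-like cells it was at 44.2 and 51.3 CPM at RT, on those few cells, 54.4 and 49.6 CPM after cold exposure and 76.1 and 79.2 CPM with CL, so the RT and cold values overlapped. These values within kinds are descriptions on few cells and carry no test. The MAC-like class holds MAC1- and MAC2-like cells only. MAC3-like cells (Clec4e and Fcgr1 among their leading genes, with genes of monocytes as well) numbered 15 and 19 at RT, 1016 and 517 after cold exposure and 340 and 72 with CL, and held Tgfbr2 at 35.2 and 34.7 CPM after cold exposure. With them counted as MAC-like, an alternative chosen after seeing the data, the log2 fold change with cold was -1.70 for Tgfbr2 (adjusted p = 0.000165) and -0.81 for Tgfbr1 (adjusted p = 0.0222), and Tgfbr1 passed the test with CL (-0.92, adjusted p = 0.0476).

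In NEUT-like cells Tgfbr2 was the only one of 3 genes tested to be called, beside 2.52% of all genes. It was at 94.0 and 99.4 CPM at RT, 35.5 and 51.2 CPM after cold exposure and 71.6 and 62.7 CPM with CL, with the cold libraries lowest. The log2 fold change was -1.20 ± 0.29 with an adjusted p of 0.0492. The call was lost without any 1 of the 4 RT and cold libraries (adjusted p 0.119 to 0.265), in DESeq2 (0.226), and without the cells of the top doublet scores, where the change was -0.68 (adjusted p = 0.307). At resolution 0.5 its adjusted p was 0.0529. The NEUT-like cells also carried macrophage genes, with MAC1 markers summing to 154 to 255 CPM at RT against 2967 to 3053 CPM after cold exposure, and MAC2 markers to 1753 to 1865 CPM at RT against 665 to 1019.8 CPM after cold exposure, and their part in this result was not tested. MONO-like cells had Tgfbr2 at 63.5 and 45 CPM at RT against 34.3 and 30.3 CPM after cold exposure (adjusted p = 0.153) and Tgfbr1 at 94.8 and 51.9 CPM at RT against 48.7 and 44.6 CPM after cold exposure (adjusted p = 0.217). Both were lower in the cold libraries without passing the test, in a class where 1.1% of all genes were called. At resolution 0.5, where 3140 of the 3527 MAC3-like cells fell into the MONO-like class, Tgfbr1 (-1.12, adjusted p = 0.0344), Tgfbr2 (-0.84, adjusted p = 0.0373) and Tgfbr3 (-2.31, adjusted p = 0.0273) were called there.

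**Figure D3:**
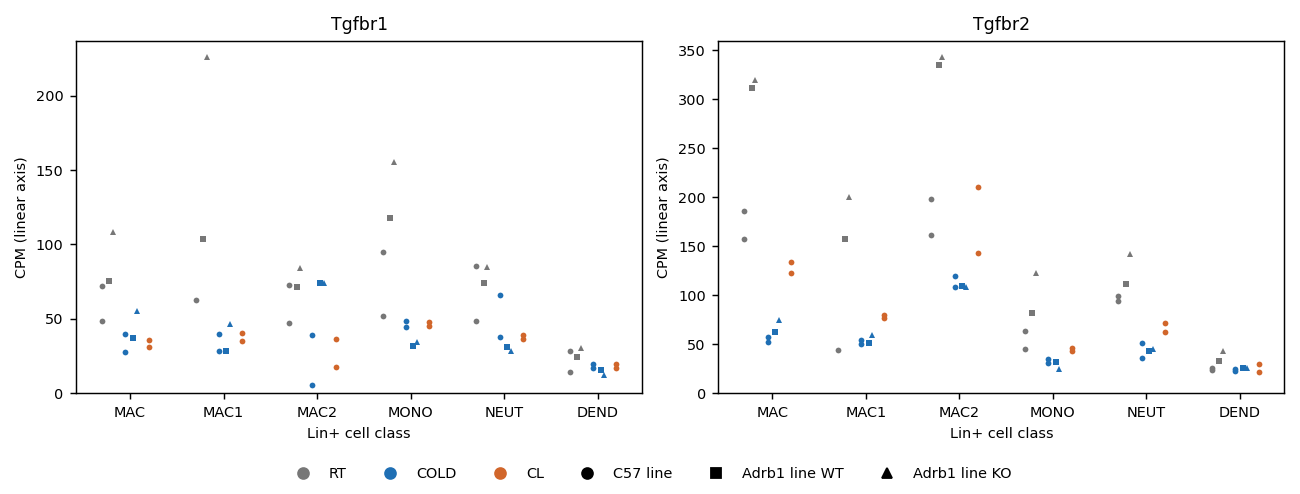
Level in CPM (y axes, linear from 0) of Tgfbr1 and Tgfbr2 in 6 Lin+ groups of cells (x axis), with a point per library coloured by treatment and shaped by mouse line, and RT replicate 2 left out of MAC1, where it had 12 cells. In MAC-like cells the Tgfbr2 values of the cold libraries, 57.5 and 52.2 CPM, lie below all RT and CL values, while within MAC1-like cells the drawn C57 libraries lie between 44.2 and 79.2 CPM.

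In the remaining Lin+ classes no gene was called in the cold: 0 of 3 tested in DEND-like, 0 of 4 in T-like, 0 of 2 in NK-like and 0 of 3 in B-like cells, where 13.4%, 0.579%, 3.16% and 0.422% of all genes were. At an unadjusted p under 0.05 there were 0 in each. Among all genes that limit was passed by 3080 of 9693, 848 of 8121, 869 of 4749 and 940 of 8061. With CL 0 of the genes tested were called in any of the 12 classes by edgeR, and DESeq2 called 0 as well. The edgeR fits tested all 10 genes in ASC1-like cells, 8 in VEC-like and 9 in each of ASC2-, ASC3- and VSMC-like cells. In Lin+ they tested 4 in each of MAC-, MONO- and T-like cells, 3 in each of DEND-, B- and NEUT-like cells and 2 in NK-like cells. The shares of all genes called with CL were 2.34% in ASC1-, 0.0526% in ASC2-, 0.168% in ASC3-, 0% in VEC- and 0% in VSMC-like cells, and 7.45% in MAC-, 0.117% in MONO-, 0.929% in DEND-, 0.0246% in T-, 0.0421% in NK-, 0.285% in B- and 0.547% in NEUT-like cells. At an unadjusted p under 0.05 there were 2 genes in each of ASC1-, ASC3-, VSMC-, MAC- and MONO-like cells, 3 in ASC2-like and 1 in NEUT-like cells. Among all genes that limit was passed by 2095 of 12647 in ASC1-, 1353 of 11404 in ASC2-, 652 of 10138 in ASC3- and 928 of 9699 in VSMC-like cells. In Lin+ it was passed by 3032 of 11147 in MAC-, 992 of 7722 in MONO- and 784 of 6587 in NEUT-like cells. The difference in CL response between ASC1- and VEC-like cells did pass for Ltbp4, at -1.56 ± 0.33 (adjusted p = 0.0429, beside 0.94% of all genes), while 0 genes differed between ASC1- and ASC2-like cells (2.07% of all genes) or ASC1- and ASC3-like cells (1.64%). In VEC-like cells Ltbp4 was at 427 and 558 CPM with CL. Without CL replicate 1, RT replicate 1 or RT replicate 2 that difference had an adjusted p of 0.101 to 0.349.

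**Figure D4:**
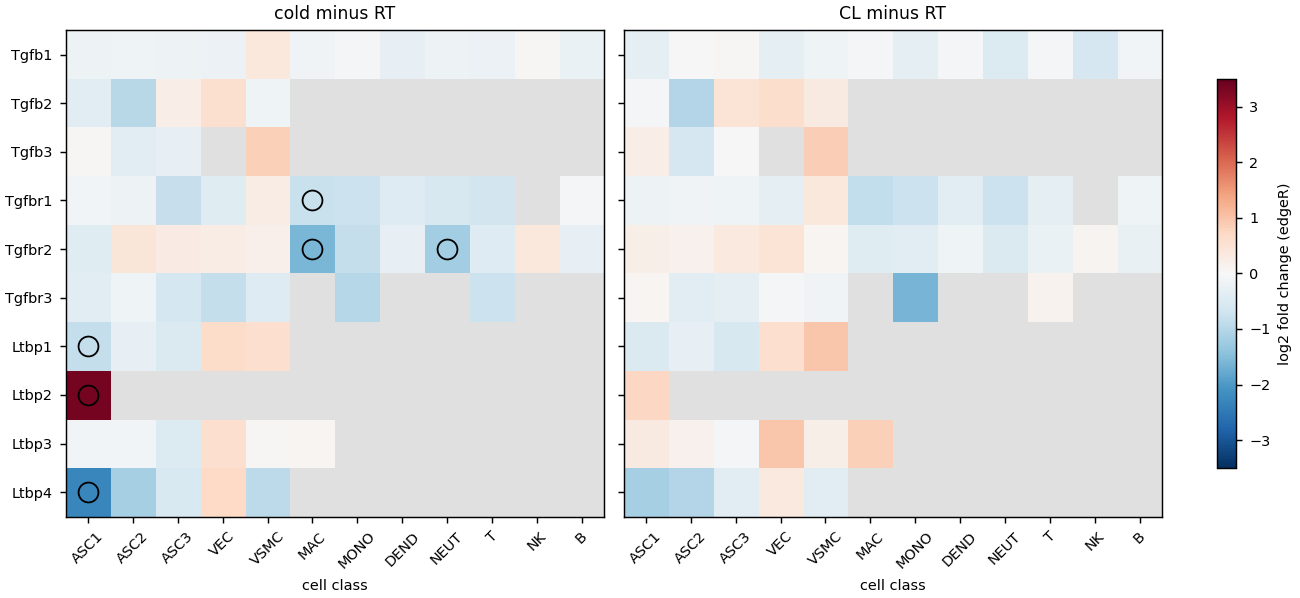
Log2 fold change (colour) of each of the 10 genes (rows) in 12 cell classes (columns) for cold against RT and CL against RT in C57 mice, with circles for calls and grey for genes that were not tested. The circles stand for Ltbp1, Ltbp2 and Ltbp4 in ASC1-like cells, Tgfbr1 and Tgfbr2 in MAC-like cells and Tgfbr2 in NEUT-like cells, all in the cold.

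Summed over all cells of a library, where changes in the numbers of each cell type enter, 2 calls were made, both in Lin+ in the cold, beside 11.1% of all genes. Tgfbr2 over all Lin+ cells was at 96.0 and 78.3 CPM at RT against 38.7 and 35.9 CPM after cold exposure (log2 fold change -1.18, adjusted p = 0.0276). Tgfbr3 was at 10.1 and 6.03 CPM at RT against 1.5 and 2.36 CPM after cold exposure (-2.01, adjusted p = 0.046). Both fell without overlap, and with any 1 of the RT and cold libraries left out both calls were lost, with adjusted p from 0.107 to 0.254. With the replicate block 4 calls were made in place of 2. Over all Lin- cells 0 of the 10 genes were called in either contrast, beside 0.013% of all genes in the cold and 0% with CL, and over all Lin+ cells 0 with CL, beside 0%. Ltbp2 came nearest in Lin-, with a log2 fold change of 3.34 in the cold (adjusted p = 0.0758).

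Other genes of the pathway were counted over lists in ASC1-like cells, where 8.25% of all genes rose and 7.7% fell in the cold and the median log2 fold change of all genes was -0.003. These lists, and that of the target genes below, were chosen with earlier results of these data known, so the counts are descriptions. Of 16 genes that anchor or activate latent TGF-beta, 14 were tested, and 3 rose and 2 fell in the cold, with a median of 0.21. Mmp9, a gelatinase that can release TGF-beta, was called on 2 UMIs in the 2 RT libraries together against 215 in the cold libraries, a ratio of CPM of 39.0 with an exact 95% counting interval of 10.7 to 324. Mmp9 was at 0 and 0.258 CPM at RT, 7.41 and 8.22 CPM after cold exposure and 1.27 and 4.22 CPM with CL. Like Ltbp2, it passed the filter on low counts only through treated libraries, where it was high, so its call lends the count no support. It is known from myeloid cells too, and the monocyte and MAC1 markers given above were also higher in the cold libraries, while the immune gene Ptprc was at 3 UMIs at RT against 18 in the cold, a ratio of 2.18 with an interval of 0.636 to 11.5. Their part in the Mmp9 value was not tested. Fn1, the fibronectin to which Ltbp1 complexes attach, rose by 2.08, whereas Itgb8, a subunit of an activating integrin, changed by -1.65 and Lrrc32, which tethers latent TGF-beta to cell surfaces, by -1.5, all as log2 fold changes. The third gene that rose was Thbs1, an activator (0.96), which lies outside the naming rule and was added after its value was seen. Both accessory receptors (Eng and Acvrl1) and all 3 transducers (Smad2, Smad3 and Smad4) were tested, and 0 of each were called. Of 10 inhibitors 2 rose, Pmepa1 (1.43) and Tgif1 (0.99), and 1 fell, Ski (-0.76).

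Of 11 known target genes of TGF-beta, all of them tested, 5 rose and 1 fell in the cold, with a median log2 fold change of 0.78. Postn, the matrix protein periostin, was at 42.1 and 35.6 CPM at RT, 736 and 789 CPM after cold exposure and 520.3 and 367 CPM with CL, so that all treated libraries lay well above RT (4.35 with cold, 3.65 with CL). Acta2 (3.2) and Tagln (3.10), contractile genes of smooth muscle and myofibroblasts, rose as well, from RT libraries that were far apart. Acta2 was at 9.72 and 0.209 CPM at RT against 86.9 and 40.0 CPM after cold exposure, and Tagln at 8.73 and 0.872 CPM against 76.4 and 35.6 CPM, so the size of both changes depends on the RT library. Cthrc1 (2.91), a secreted matrix protein, and Ctgf (2.44) also rose. Tgfbi, a matrix adaptor, was the one that fell (-1.23), and like Ctgf it lies outside the naming rule and was added after its value was seen. With CL, 2 targets rose, Postn and Cthrc1 (2.27), and so did Fn1 (2.18) and Pmepa1 (1.52), and no gene of the 5 lists fell, where 1.34% of all genes rose and 1% fell with CL. In the ASC1-like cells of the Adrb1 line Fn1 was at 156 CPM in WT RT and 159.8 CPM in WT COLD, and at 211 CPM in KO RT and 90.6 CPM in KO COLD, so it was not higher in the KO cold library. In MAC-like cells after cold exposure, 5 of 9 anchors and activators tested rose and 1 fell, 1 of 10 inhibitors rose and 5 fell, 1 of 3 transducers fell, and 1 of 6 targets fell, beside 35.9% of all genes called in either direction.

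**Figure D5:**
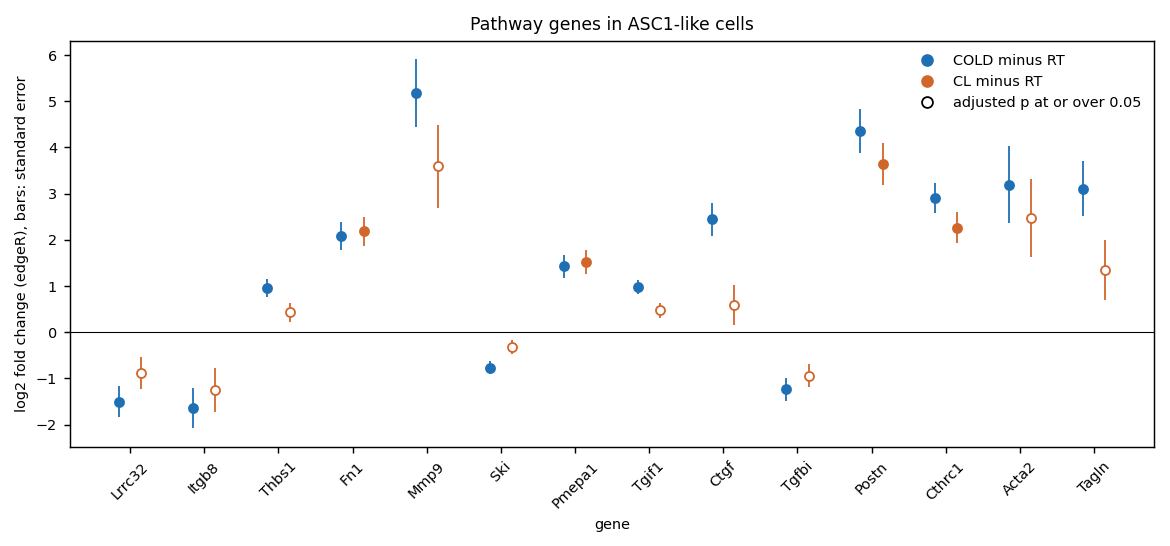
Log2 fold change against RT (y axis, bars are standard errors from edgeR) of pathway genes called in ASC1-like cells in either contrast (x axis), for cold (blue) and CL (orange), with open points at an adjusted p of 0.05 or more. Mmp9, whose fitted value rests on 2 UMIs at RT, Postn, Acta2 and Tagln lie furthest above 0, and Itgb8, Lrrc32 and Tgfbi below it in the cold.

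Genes whose levels over the 12 classes were most like those of the members were ranked among 12077 genes by Pearson's r of log2(CPM + 1) of the class means. This is a description over 12 points that share libraries. Nearest to Tgfb2 was Zfp423 (r = 0.995), to Tgfb3 Dmpk (0.991), to Tgfbr1 Wsb1 (0.822), to Tgfbr2 Cnnm3 (0.897) and to Tgfbr3 Zbtb11os1 (0.956). Nearest to Ltbp1 was Cthrc1 (0.999), to Ltbp3 Efemp2 (0.99), a microfibril protein, and to Ltbp4 Fmo1 (0.996), with Fbln5, an elastic fibre protein, at rank 3. The mean of Ltbp2 over the experiments stayed under 10 CPM in each of the 12 classes, and it was not ranked.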

How the data were processed

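The 10 genes, the gene lists and the tests were chosen with earlier results of these data known. The deposited matrices hold expected counts (corrected UMI counts): the authors aligned reads with Cell Ranger 3.0.1 to mm10 and subtracted cell-free RNA with SoupX, taking Fabp4 and Car3 as genes absent from stromal cells. No other scaling was applied to them. Cells with at least 10% mitochondrial UMIs or over 15000 UMIs were removed, as were Lin+ cells with over 4000 genes and Lin- cells with under 100 genes, as in the study's methods. No doublets were removed in the main fits, whereas in 1 alternative the cells with the highest 6% of Scrublet scores were dropped from every library. Total UMIs kept per library were 7.86e+06 to 4.20e+07. Clusters (Leiden, leidenalg 0.10.2, 2000 variable genes, 30 principal components, 20 neighbours, resolution 1) were named from marker lists, and clusters with conflicting genes stayed unnamed.

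Counts were summed per library and class, rounded, and tested with edgeR 4.0.16 in R 4.3.3 (TMM, filterByExpr, glmQLFit, glmQLFTest, two-sided) for 12 listed classes, each with at least 20 cells in each C57 library (Schwann-like cells had as many but were not in that list), with Benjamini-Hochberg adjustment over all genes tested and a threshold of 0.05. The 6 C57 libraries of a fraction shared 1 fit per class, because 2 replicates estimate the spread poorly. A standard error is the absolute log2 fold change divided by the square root of F. Differences in response used a class by treatment term with the library as a block. All 10 genes are named, and of the pathway lists at most the 4 called genes with the largest absolute log2 fold change per list and contrast. On data simulated for ASC1-like cells, cold against RT (12309 genes), 24% of genes changed 2-fold and 98% of those changed 4-fold were recovered, with 4 false calls. Replicates of a group differed beyond sampling noise (chi-square per degree of freedom 33.0 to 257), and, per the study's methods, came from separate pools of mice in separate experiments, so p-values measure the spread between these libraries. The study's methods merged libraries of the same replicate experiment, so the replicate numbers pair libraries. Same-numbered libraries deviated from their group means with r from 0.00567 to 0.532. Alternatives were DESeq2 1.42.0 as test and as size factors, no filter, a replicate block, each library left out, doublet scores, resolution 0.5 and the Adrb1 line added. Gene positions are from RefSeq on GRCm38. The gene ranked nearest to Tgfb1 is not reported here.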

Additional observations from a re-analysis of the deposited data

Results flagged for a closer look

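The difference in response between 2 classes of the same libraries passed the test in 7 cases, each tested with a class by treatment term and the library as a block (edgeR, log2 scale, ASC1-like cells minus the other class). For cold, Ltbp4 differed from ASC2-like cells by -1.13 ± 0.17 (SE, adjusted p = 0.00121), from ASC3-like cells by -1.77 ± 0.20 (adjusted p = 3.90e-06) and from VEC-like cells by -2.93 ± 0.33 (adjusted p = 0.00028). Tgfbr2 differed from ASC2-like cells by -0.85 ± 0.22 (adjusted p = 0.0338) and from ASC3-like cells by -0.72 ± 0.16 (adjusted p = 0.00345), and Ltbp1 from VEC-like cells by -1.52 ± 0.26 (adjusted p = 0.00408). For CL, Ltbp4 differed from VEC-like cells by -1.56 ± 0.33 (adjusted p = 0.0429). Each difference had the same sign in every alternative that was run, and the 3 of Ltbp4 in the cold kept an adjusted p of at most 0.0328 with any 1 library left out. Groups of 1 or 2 libraries were too small for a test of single libraries against their group.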

How the results depend on the processing

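Direction under the alternatives was followed for the calls with cold, for the differences in response that passed and for a few values that were not called. No called result changed direction. A change of sign between values that were not called was not tracked, and differences between classes were followed as counts only. Of the values for single genes under alternatives, 182 kept their side of the threshold, 34 lost a call and 10 gained one. The counts of members called moved as follows. Cold against RT in Lin-, 3 calls, gave 6 without the filter on low counts and 8 with the Adrb1 line, in which kit and temperature cannot be told apart, and 1 to 2 with 1 library left out. Cold against RT in Lin+, 3 calls, gave 1 with the DESeq2 test, 5 at resolution 0.5 and 8 with the Adrb1 line, with the same limit, and 1 to 2 with 1 library left out. CL against RT, 0 calls in each fraction, gave 4 in Lin- and 1 in Lin+ without the filter, and 0 to 3 and 0 to 1 with 1 library left out, the highest of both without CL replicate 2. With the replicate block, Lin+ with CL gave 1 call, Tgfbr1 in MAC-like cells, and the sums over all cells gave 4 in place of 2, as they did with the DESeq2 test, against 1 without the top doublet scores, 0 without any 1 RT or cold library, and 1 without either CL library, where only CL, with 0 calls, was refitted. The block moved no other count of members by over 1.5 times. The 46 differences between classes ranged from 41 to 49. The 7 differences in response became 13 without the filter, 11 without the top doublet scores and 1 to 8 with 1 library left out. These were 4 and 8 without an RT library, 5 and 6 without a cold library, where only the 6 for cold were refitted, and 1 and 5 without CL replicate 1 or 2, where only the 1 for CL was. Calls over all genes moved too, in ASC1-like cells in the cold from 2017 to between 612 and 3899, and in MAC-like cells from 4006 to between 1868 and 5102. Among alternatives chosen after seeing the data, leaving out the barcodes shared by the libraries of CL replicate 2 gave 0 calls with CL, counting the endothelial and erythroid cluster as VEC-like gave 0 calls in that class, and counting MAC3-like cells as MAC-like gave 1 call with CL in Lin+, Tgfbr1, and left both calls of that class in the cold. With 2 libraries per group, 24% of 2-fold changes simulated for ASC1-like cells were found, so smaller changes were mostly not detectable under the settings of that simulation. It gave every gene the same dispersion and changed only genes with higher counts. Other classes were not simulated. Among the classes Ltbp2 was tested only in ASC1-like cells, on 9.0 UMIs at RT.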

Other observations

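Classes outside the 12 tested held the 10 genes at levels of their own, given here as values with no test. In differentiating adipocyte-like cells, counted in 5 experiments, all of them cold or CL, Tgfbr2 was at 16.8 ± 6.26 CPM (SD, n = 5), with a highest value of 22.5 CPM, below the lowest ASC1-like value of 65.5 CPM. Ltbp1 there reached at most 13.6 CPM, below the ASC1-like minimum of 41.4 CPM, and Tgfb2 at most 2.42 CPM, below the ASC1-like minimum of 16.6 CPM over all 10 experiments, with 2 of the 5 values at or under the floor of 3 counts. Tgfb1 was at 11.6 ± 2.17 CPM, Ltbp3 at 46.2 ± 17.6 CPM and Tgfbr3 at 73.1 ± 17.6 CPM, and the Ltbp3 range, 31.6 to 70.1 CPM, overlapped that of ASC1-like cells. In Schwann-like cells, the glia of tissue nerves, Ltbp4 was at 149 ± 27.6 CPM and Tgfb2 at 61.3 ± 22.4 CPM (n = 10), whereas Tgfb3 was at 7.74 ± 7.09 CPM, with 7 of the 10 experiments at or under the floor of 3 counts. In epithelial-like cells, counted in the 4 experiments of the Adrb1 line, in which kit and temperature cannot be told apart, Tgfb3 was at 79.1 ± 29.8 CPM and Ltbp3 at 81.5 ± 12.1 CPM (n = 4).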
